A study of Rattus norvegicus with 36 samples.

Results

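Trim AG, a form of the microRNA miR-125b that lacks the last 2 bases of its 3′ end, was compared with a mimic control (MC) in H9C2 cells under hypoxia. H9C2 is a line of myoblasts derived from rat heart. The comparison holds 6 of the 36 RNA libraries of the series, 3 of cells given Trim AG (written Trim 2 in the labels) and 3 of cells given MC, all taken after hypoxia. Cells of both groups were transfected with 25 nmol/L of mimic and then kept in low oxygen in a low-glucose medium without serum. The groups thus share the transfection, the hypoxia, the low glucose and the loss of serum and differ in the mimic. The series has 6 such mimics, and the hypoxia libraries of miR-125b, Trim A and Trim AGU, 3 each, are used below only to show where Trim AG differs. The model is an overexpression: the mimic was added to cells that have their own miR-125b, and its level was not measured in these poly-A libraries, so the libraries themselves hold no check of the transfection.

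MicroRNAs are short RNAs that guide Argonaute proteins to messenger RNAs, mostly by pairing of bases 2 to 8, the seed, with sites in the 3′ untranslated region, and a bound messenger RNA is degraded or translated less. IsomiRs are forms of a microRNA that differ by a few bases at an end, and a change at the 3′ end leaves the seed as it is. miR-125b is expressed in heart and skeletal muscle, and it is known for its targets among genes of apoptosis and of growth factor signalling.

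The 5 forms of miR-125b in the series are shown to make plain that Trim AG differs from the others only at its 3′ end. They were built from the mature rat miR-125b of RefSeq by adding or removing 3′ bases as the names say, and capitals mark the seed. That mature sequence lies at chr11:29732588-29732609 on the plus strand of GRCr8 in Mir125b2. The same sequence also lies in Mir125b1, whose hairpin is at chr8:50850036-50850122 on the plus strand.
Plus A: uCCCUGAGacccuaacuugugaa
miR-125b: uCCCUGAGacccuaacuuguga
Trim A: uCCCUGAGacccuaacuugug
Trim AG: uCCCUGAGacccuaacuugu
Trim AGU: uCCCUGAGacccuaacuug
The seed CCCUGAG is the same in all 5. Trim AG has 20 bases, against 22 in miR-125b, 21 in Trim A and 19 in Trim AGU.

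The MC libraries held 29137144 to 30249555 counts and the Trim AG libraries 39940049 to 42672504. Replicates of Trim AG were less alike than those of MC, the chi-square per gene being 28.0 to 96.0 for pairs of Trim AG libraries and 5.56 to 6.78 for pairs of MC libraries. Genes in the longest quintile of gene length took 20.5% of the counts in Trim AG replicate 2, 22.8% in replicate 3 and 25.7% in replicate 1, against 28.1% to 29.4% in MC. Over the quintiles of gene length the median log2 fold change (Trim AG minus MC) went from 0.16 in the shortest genes to −0.19 in the longest, and what part this has in single results was not tested beyond the values given beside them. The labels call the cells cardiac myoblasts, and of 11 cardiomyocyte markers 7 (Myh6, Myh7, Nppa, Nppb, Nkx2-5, Tbx5 and Ryr2) stood below 1 CPM (counts scaled to library size with TMM factors). Of 9 skeletal myoblast markers 6 reached 1 CPM, as did 6 of 7 of fibroblasts, all 5 of smooth muscle, 2 of 7 of leukocytes, and 1 each of 6 of endothelium, of 4 of epithelium (Krt8) and of 4 of neural cells (Tubb3). Summed over its list, the range over libraries went from 330.4 to 351.4 CPM in MC to 30.6 to 35.5 CPM in Trim AG for the cardiomyocyte markers. Tnnt2 and Actc1 made up most of that sum in MC, but not in Trim AG. Of the 7 tested markers these 2 were called lower and Nppb and Gata4 higher (2.04 and 0.63), with a median log2 fold change of 0.20. Gata4 was not called without Trim AG replicate 1 (0.51) or 3 (0.58). The range of the sum went from 27670 to 28450 to 9113 to 18190 CPM for fibroblast markers, 185.3 to 195.5 to 49.7 to 57.6 CPM for epithelium and 29.4 to 31.1 to 52.9 to 57.3 CPM for neural cells. Endothelial and leukocyte markers summed to under 5 CPM in every library.

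RNA levels differed widely between Trim AG and MC. Most tested genes of the sarcomere, extracellular matrix and interferon lists were called lower with Trim AG, and most of the mitosis, DNA replication, serum response factor and unfolded protein response lists were called higher. Of 15315 genes tested with edgeR, 2604 were up-regulated (17.0% of those tested) and 3088 down-regulated (20.2%) by the rule used for every call here, a Benjamini-Hochberg adjusted p under 0.05 with a change of 1.5-fold or more. Changes of 4-fold or more were found in 232 genes with higher and 506 with lower expression. The groups did not overlap in 10210 genes (66.7%), and the median log2 fold change of all genes tested was 0.0. Since cultures of their own are not stated for the 3 libraries of a group, the p-values measure the spread between these libraries, which may be technical.

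**Figure D1:**
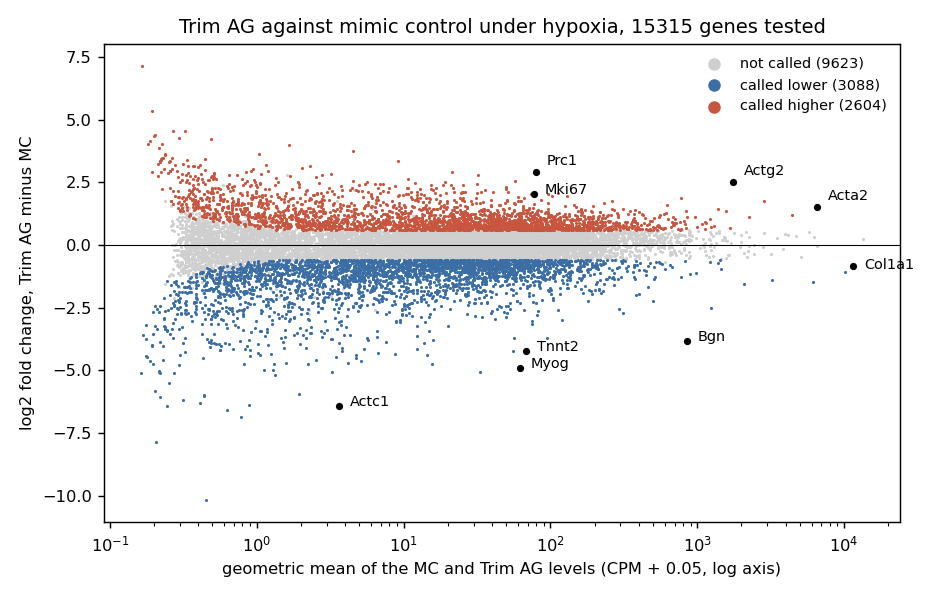
Log2 fold change (Trim AG minus MC, vertical axis) against the geometric mean level of the 2 groups (CPM + 0.05, log axis), 1 point per gene tested. Red points are the 2604 genes called higher with Trim AG, blue points the 3088 called lower and grey points those not called, and changes were found over the whole range of levels.

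The genes that fell most were led by muscle genes. Among the 12 named protein coding genes with the largest falls were Actc1 (cardiac alpha-actin), Tnni2 (fast skeletal troponin I), Myog (myogenin, the transcription factor of terminal myoblast differentiation), Chrnd (delta subunit of the muscle acetylcholine receptor), Unc45b (a myosin chaperone) and Mybph (myosin-binding protein H), with log2 fold changes of −6.44, −5.06, −4.90, −4.63, −4.39 and −4.38. The others were Mamdc2 (−5.95), Olfml2b (−5.05), Olfml2a (−4.75), Nhp2 (−4.69), Klk4 (−4.59) and Il33 (−4.46). Il33, an alarmin cytokine, stood at 16.2, 15.6 and 15.7 CPM in MC and at 0.599, 0.565 and 0.961 CPM in Trim AG. Nhp2 varied widely within MC, at 35.2, 17.7 and 8.96 CPM.

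Myog (ENSRNOG00000030743, chromosome 13, 51126459 to 51129048, plus strand in the deposited annotation, whose build is not named) was expressed at 344, 349 and 330 CPM in MC and at 11.7, 10.7 and 11.6 CPM in Trim AG. The 6 libraries formed 2 tight sets far apart, 340.9 ± 9.97 against 11.3 ± 0.53 CPM (mean ± SD, n = 3 each), a 29.9-fold fall (log2 fold change −4.90 ± 0.09, SE, edgeR adjusted p = 3.1e-08). Tnnt2, which encodes cardiac troponin T, stood at 286, 308 and 297 CPM in MC and at 14.7, 16.8 and 16.1 CPM in Trim AG. That was an 18.6-fold fall (log2 fold change −4.22 ± 0.09, edgeR adjusted p = 6.4e-08). Actc1 was at 32.3, 30.7 and 33.7 CPM in MC and at 0.432, 0.180 and 0.469 CPM in Trim AG, an 87.0-fold fall.

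Of 56 sarcomere and muscle calcium handling genes in the list, 46 passed the filter on low counts, and of these 31 fell, 2 rose and 13 were not called, with a median log2 fold change of −2.07. The filter keeps a gene that is expressed in either group, so a gene at 0 in both was not counted. In these whole-culture libraries, fewer cells of a type and less RNA per cell cannot be told apart. The thick filament genes Myh3 (embryonic myosin heavy chain), Mylpf (fast regulatory light chain) and Myl4 (atrial and embryonic light chain) fell by 4.22, 3.70 and 4.36 on the log2 scale. Myh3 was at 237, 222 and 266 CPM in MC and at 17.9, 8.55 and 11.9 CPM in Trim AG, so its lowest MC library was far above its highest Trim AG library.

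The troponins, the calcium switch of the thin filament, did not fall to the same degree. The slow and fast troponin I genes Tnni1 and Tnni2 and the troponin T genes Tnnt2, Tnnt3 and Tnnt1 had log2 fold changes of −3.24, −5.06, −4.22, −2.28 and −1.54, while those of the troponin C genes Tnnc1 and Tnnc2 were −0.64 and −0.80. Per transcript length, as deposited FPKM, Tnnt2 and Tnnc1 were near the same level in MC, at 237.7 ± 8.85 and 234.8 ± 5.48. In Trim AG they were at 12.8 ± 0.85 and 151.5 ± 29.8 FPKM. The call of Tnnc1 was lost without Trim AG replicate 1, where its log2 fold change was −0.51.

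Genes that release and pump calcium in the sarcoplasmic reticulum were split. Ryr1 (the skeletal calcium release channel) and Atp2a1 (the fast calcium pump) fell by 3.68 and 4.10 on the log2 scale, and Casq1 (skeletal calsequestrin) fell by 2.08. Atp2a2, the pump of cardiac and slow muscle, and Casq2, cardiac calsequestrin, were not called, at mean levels of 520 and 192 CPM in MC and 534 and 174 CPM in Trim AG. Sln, an inhibitor of the pump, was at 3.92, 4.71 and 3.64 CPM in MC and had no count in any Trim AG library.

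Factors that drive muscle differentiation fell in part. Of 21 tested genes of myogenic and cardiac factors and the acetylcholine receptor, 11 fell and 3 rose. Chrna1, the alpha subunit of the receptor, fell from 29.9, 31.2 and 27.2 CPM to 1.34, 1.64 and 1.41 CPM. Myod1, the factor that specifies myoblasts, was at 64.5, 60.2 and 59.2 CPM in MC and at 37.9, 26.8 and 29.1 CPM in Trim AG. Its fall of 0.96 on the log2 scale was small beside that of Myog, its target in the same lineage. Mef2c, a partner of the myogenic factors, fell by 1.52 and Id3, an inhibitor of them, by 1.09. Mef2a was not called (−0.43). The genes that rose were Srf (serum response factor, 0.99), Hand2 (1.28) and Gata4 (0.63), of which Gata4 lost its call without Trim AG replicate 1 (0.51) or 3 (0.58).

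**Figure D2:**
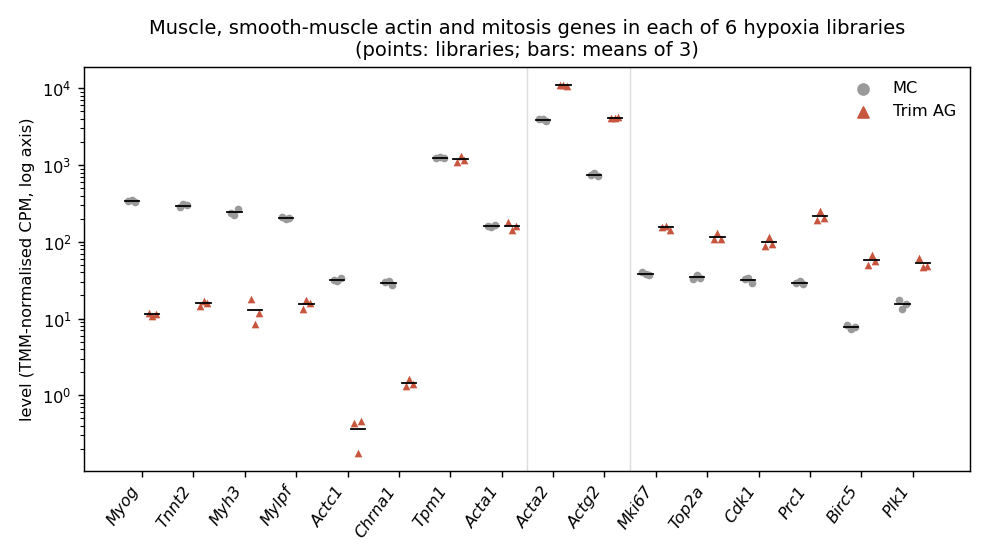
Level (TMM-normalised CPM, log axis) of 16 genes in each of the 3 MC (circles) and 3 Trim AG (triangles) libraries, with bars at the means. Muscle genes from Myog to Chrna1 were lower in every Trim AG library than in any MC library, Tpm1 and Acta1 overlapped, and the smooth muscle actins and the 6 mitosis genes were higher in every Trim AG library.

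Mitosis genes rose together. All 29 tested genes of a list of 30, from entry into mitosis to cytokinesis, were called higher, with a median log2 fold change of 2.02 and a range from 1.19 (Cdc25c) to 2.91 (Prc1). Prc1 (ENSRNOG00000013057, chromosome 1, 142087208 to 142108746, plus strand in the deposited annotation), which bundles the microtubules of the central spindle, was at 28.9, 30.4 and 27.8 CPM in MC and at 194, 253 and 204 CPM in Trim AG (7.52-fold, log2 fold change 2.91 ± 0.11, edgeR adjusted p = 5.4e-07). Birc5 (survivin, a subunit of the chromosomal passenger complex) was at 8.28, 7.22 and 7.77 CPM in MC and at 50.5, 66.8 and 55.7 CPM in Trim AG. In both genes the lowest Trim AG library was several times above the highest MC library, and Trim AG replicate 2 was the highest.

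Mki67, a marker of cycling cells, rose from 40.5, 38.03 and 37.1 CPM to 158, 162 and 144 CPM (4.04-fold). Cdk1, the kinase of mitotic entry, and its cyclins Ccnb1 and Ccna2 rose by 1.65, 2.19 and 2.10 on the log2 scale. The kinases of spindle and chromosomes Plk1, Aurka and Aurkb rose by 1.76, 1.70 and 1.37, the spindle checkpoint genes Bub1b and Mad2l1 by 1.69 and 1.57, and the activator and the ubiquitin enzyme of the anaphase-promoting complex, Cdc20 and Ube2c, by 2.27 and 2.07. Of the 12 named protein coding genes with the largest rises, Prc1, Birc5, Anln (2.54), Gas2l3 (2.50), Nek2 (2.48) and Cdca8 (2.44) encode proteins of mitosis or cytokinesis. The others were Yif1b, Nupr1, Phf19 (2.57), Actg2 (2.49), Depdc1 (2.45) and Ube2t (2.43).

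Yif1b and Nupr1 varied widely among the Trim AG libraries. Yif1b was at 7.07, 39.9 and 38.7 CPM in Trim AG and at 1.96, 2.19 and 4.40 CPM in MC. Nupr1 was at 224, 13.9 and 15.7 CPM in Trim AG and at 11.6, 12.7 and 12.7 CPM in MC, so that Trim AG replicate 1 set its log2 fold change of 2.79 (adjusted p = 0.036), which was 0.27 and not called without that library. The call was also lost without any one of the MC libraries (adjusted p = 0.089 to 0.098). Both symbols belong to 2 identifiers in the deposited table, and reads may be split between them.

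DNA replication genes rose less than those of mitosis. Of 36 tested, 24 were called higher and none lower by edgeR, with a median log2 fold change of 0.84, and 2 had a negative value, Gins2 at −0.41 (adjusted p = 0.018) and Prim2 at −0.53 (adjusted p = 0.0049). Prim2 was called lower without MC replicate 1 (−0.59) or Trim AG replicate 2 (−0.62). Pcna, the sliding clamp of the polymerases, rose from 74.6, 73.7 and 68.7 CPM to 147, 192 and 164 CPM. The origin licensing genes Cdt1, Cdc6 and Mcm5 rose by 1.89, 1.42 and 1.64, whereas Mcm2, Lig1, Tyms and Tk1 were not called. Among G1 regulators 4 of 22 rose and 4 fell: Myc (1.59) and E2f7 (1.53) led the rise, and Cdkn2b, an inhibitor of the G1 cyclin-dependent kinases, fell from 115, 108 and 108 CPM to 28.0, 28.2 and 26.8 CPM. The D-type cyclins and the inhibitors Cdkn1a and Cdkn1b were not called.

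Promoters of mitosis genes are known for pairs of a CHR element and CCAAT boxes, bound by the DREAM and MuvB complexes and by NF-Y, and those of muscle genes for E-boxes of the myogenic factors and CArG boxes of serum response factor. A window of 250 bases before to 50 after the gene start was available from RefSeq (GRCr8) for 9503 of the 15315 tested genes. The letters TTTGAA or TTCGAA, searched on both strands as the CHR element, were in 18 of 25 windows of the mitosis list (72.0%) and in 13.8% of all windows. The CCAAT box (CCAAT, both strands) was in 20 of 25 (80.0%) and in 37.6%, and both motifs were in 15 of 25 (60.0%) and in 5.57%. In the replication list 6 of 31 windows (19.4%) held the CHR letters and 19 of 31 (61.3%) the CCAAT box. The CCAAT box was also in 8 of 12 windows (66.7%) of serum response factor targets. The myogenic E-box CAGCTG, which reads the same on both strands, was in 13 of 36 sarcomere windows (36.1%) and in 16.1% of all, and the CArG box was in 5 of 12 windows of serum response factor targets (41.7%) and in 1.37%. List members were searched whether called or not, so these shares do not depend on the change with Trim AG. Among windows of all genes called higher, 17.3% held the CHR letters, 40.7% the CCAAT box, 8.61% both and 2.28% the CArG box. Among windows of all genes called lower, 18.2% held the E-box. These matches describe letters in a window and show neither binding nor a cause.

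Windows of 4 genes are printed, since each holds the motif of its group and the first 2 belong to genes that rose, the third to a gene that fell and the last to a gene that was not called. They run 5′ to 3′ on the strand of the gene, and capitals mark the motifs. Prc1 (chr1:143659231-143659530, plus) holds the CHR letters 18 to 13 bases before its start and CCAAT boxes 50 to 46 and 239 to 235 bases before it. Plk1 (chr1:186147408-186147707, plus) holds them 7 to 12 bases after and 38 to 34 bases before its start. Chrna1 (chr3:78877304-78877603, minus) holds E-boxes 75 to 70 and 27 to 22 bases before its start, and Acta1 (chr19:68784145-68784444, minus) a CArG box 94 to 85 and an E-box 237 to 232 bases before its start.
Prc1: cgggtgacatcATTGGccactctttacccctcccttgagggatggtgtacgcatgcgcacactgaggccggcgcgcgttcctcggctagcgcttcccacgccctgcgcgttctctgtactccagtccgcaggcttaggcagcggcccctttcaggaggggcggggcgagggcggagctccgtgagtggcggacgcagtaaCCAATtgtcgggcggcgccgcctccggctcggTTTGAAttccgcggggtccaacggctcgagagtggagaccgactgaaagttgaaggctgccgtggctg
Plk1: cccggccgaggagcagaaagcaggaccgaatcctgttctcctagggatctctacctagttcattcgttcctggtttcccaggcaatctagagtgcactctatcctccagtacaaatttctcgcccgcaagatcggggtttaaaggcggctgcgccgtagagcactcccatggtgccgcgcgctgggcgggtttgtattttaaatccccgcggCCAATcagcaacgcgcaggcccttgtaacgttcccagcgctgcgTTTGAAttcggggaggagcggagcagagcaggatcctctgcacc
Chrna1: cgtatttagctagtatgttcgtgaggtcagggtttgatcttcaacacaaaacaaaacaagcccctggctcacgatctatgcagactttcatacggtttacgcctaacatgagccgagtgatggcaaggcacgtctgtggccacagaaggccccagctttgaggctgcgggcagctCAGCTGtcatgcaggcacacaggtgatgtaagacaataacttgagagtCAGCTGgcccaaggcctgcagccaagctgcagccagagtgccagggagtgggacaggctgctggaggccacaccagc
Acta1: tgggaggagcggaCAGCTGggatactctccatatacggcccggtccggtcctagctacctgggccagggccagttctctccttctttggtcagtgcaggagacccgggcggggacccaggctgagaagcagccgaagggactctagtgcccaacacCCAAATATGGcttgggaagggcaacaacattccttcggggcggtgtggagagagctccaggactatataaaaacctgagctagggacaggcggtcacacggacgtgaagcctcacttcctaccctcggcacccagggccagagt

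The actin genes went different ways. Per transcript length, as deposited FPKM, Actb (cytoplasmic beta-actin) was the most abundant of the 6 in MC at 3618 ± 93.8 and fell to 1384 ± 44.7 in Trim AG. Actg1, cytoplasmic gamma-actin, rose from 846.9 ± 23.0 to 2192 ± 38.9, so their order changed. The smooth muscle actins Acta2 and Actg2 rose from 2719 ± 86.2 to 7678 ± 97.4 and from 506.1 ± 24.9 to 2852 ± 53.5 FPKM, which made Acta2 the most abundant. Acta1, skeletal alpha-actin, was at 108.4 ± 3.33 and 109.6 ± 12.5 FPKM, a difference within the spread (log2 fold change 0.01, edgeR adjusted p = 0.92), while Actc1, its close relative, went from 20.9 ± 0.97 to 0.236 ± 0.104. Actins are near-identical in their coding sequence, and how the counting split shared reads among them was not tested.

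**Figure D3:**
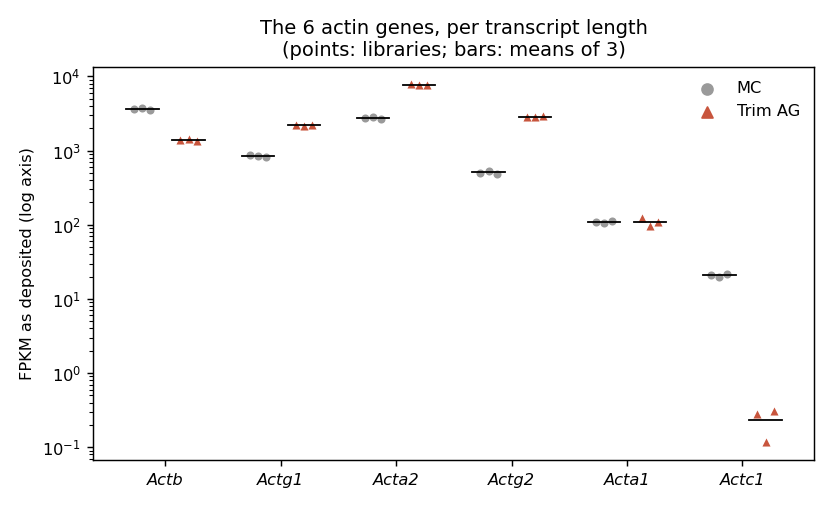
Level of the 6 actin genes (FPKM as deposited, log axis) in each MC (circles) and Trim AG (triangles) library, with bars at the means of 3. Actb and Actc1 were lower and Actg1, Acta2 and Actg2 higher in every Trim AG library, and Acta1 overlapped between the groups.

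Smooth muscle contractile genes and other targets of serum response factor rose with the smooth muscle actins. Of 18 tested, 11 rose and 2 fell, with a median log2 fold change of 0.85. Tagln (transgelin, an actin-binding protein) stood at 1556, 1603 and 1492 CPM in MC and at 4595, 5659 and 5297 CPM in Trim AG. Cnn1 (calponin) and Myl9 (smooth muscle light chain) rose by 1.75 and 1.45, and Vcl (vinculin) by 0.79. The 2 genes that fell were Actb and Ankrd1 (−1.39 and −0.69). Myocd, the coactivator of serum response factor in smooth muscle, was at 13.7, 12.6 and 15.3 CPM in MC and at 8.56, 6.73 and 10.2 CPM in Trim AG, so it did not rise with them. Its fall of 0.70 was not called without Trim AG replicate 2 (−0.55), with the length trend removed (−0.53) or in 1 fit of all 18 libraries (−0.71, edgeR adjusted p = 0.07). The 5 smooth muscle markers together summed to 5437 to 5790 CPM in MC and to 16100 to 17150 CPM in Trim AG, the skeletal myoblast markers to 821.0 to 850.1 and 192.8 to 249.7 CPM, and the part of either in other results was not tested.

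Extracellular matrix genes fell, and the Trim AG libraries differed among themselves. Of 35 tested genes of collagens, matrix proteins and their enzymes, 26 fell and 1 (Timp3, an inhibitor of matrix metalloproteinases) rose, with a median log2 fold change of −1.18. Postn (periostin) fell evenly, from 2902, 3009 and 2990 CPM to 512, 508 and 517 CPM. The small proteoglycans, which coat collagen fibrils, fell far: Bgn (biglycan) from 3115, 3287 and 3248 to 306, 146 and 218 CPM, Lum (lumican) from 61.6, 54.8 and 60.1 to 4.004, 4.29 and 4.29 CPM and Dcn (decorin) by 3.08 on the log2 scale. Mmp2 and Mmp14, which degrade matrix, fell by 2.79 and 2.25.

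The most abundant matrix genes had a wider spread. Fn1 (fibronectin) was at 14250, 14610 and 15230 CPM in MC and at 10040, 4441 and 6453 CPM in Trim AG, and Col1a1 (the main chain of type I collagen) at 14820, 15660 and 15900 and at 12390, 5540 and 7978 CPM. In both genes Trim AG replicate 1 was the nearest to MC and replicate 2 the farthest below it. The log2 fold change of Col1a1 was −0.83 ± 0.24 (edgeR adjusted p = 0.016), and the call was lost without Trim AG replicate 3 (adjusted p = 0.053). Trim AG replicate 2, the lowest in Fn1, Col1a1 and Col3a1, was also the library with the smallest share of counts in the longest genes. Removing the trend on gene length applied the same trend to all Trim AG libraries and left the differences among them as they were. With that trend removed 22 matrix genes were called lower, Col1a1 (−0.64) among them, and Col11a1 (−0.53) lost its call. Col4a1, Col4a2 and Col5a1 lost theirs as well, and also without Trim AG replicate 2 (−0.42, −0.42 and −0.49), Trim AG replicate 3 (−0.59, −0.59 and −0.69) or MC replicate 3 (−0.59, −0.58 and −0.67). Col4a1 and Col4a2 lost them too without MC replicate 2 (−0.64 and −0.65), and Col4a2 without MC replicate 1 (−0.64).

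Interferon-stimulated genes fell, many of them from low levels. Of 40 genes in the list 26 passed the filter, and of these 17 fell and 1 rose (median log2 fold change −1.24). Irf1, a transcription factor induced by interferon, was at 19.97, 21.4 and 19.8 CPM in MC and at 5.92, 8.04 and 7.87 CPM in Trim AG, so the groups did not overlap. Irf1, Irf7 and Parp14 fell by 1.48, 1.27 and 1.80 on the log2 scale. Isg20, an exonuclease, rose from 13.4, 14.2 and 13.2 CPM to 39.5, 37.5 and 38.4 CPM, against the other called members. B2m and Tap1, of antigen presentation, were not called (0.55 and 0.46), though B2m was called higher without Trim AG replicate 1 (0.67). Of 21 genes of inflammation and NF-kB, 5 rose and 4 fell. Cxcl12 and Vcam1, a chemokine and an adhesion molecule, fell by 1.98 and 1.72, while the NF-kB subunits Nfkb2, Relb and Rel rose by 0.98, 1.03 and 0.84.

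Genes of apoptosis that the study had selected as targets of miR-125b fell in part. Of 13 tested genes that the study named, including Tnnt2, 6 fell (46.2%, against 20.2% of all genes tested), 6 were not called and 1 rose. The study chose these genes, so their share is not independent evidence of a direction. Bmf, a BH3-only activator of apoptosis, was at 34.3, 35.3 and 37.4 CPM in MC and at 5.51, 4.03 and 4.94 CPM in Trim AG, a 7.31-fold fall (log2 fold change −2.87 ± 0.12, edgeR adjusted p = 7.9e-07). Bcl2l11, which encodes BIM, fell from 46.0, 45.0 and 46.9 CPM to 24.7, 21.1 and 22.4 CPM. Tnfrsf1b (TNF receptor 2) was low, at 1.36 to 1.76 CPM in MC and 0.385 to 0.527 CPM in Trim AG. Tp53inp2 and Traf6 fell by 1.31 and 0.65, Traf6 losing its call without MC replicate 3 (−0.54).

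Other genes of this set did not fall. Bak1, an effector of mitochondrial permeabilization, was at 60.7, 60.6 and 58.5 CPM in MC and at 65.5, 58.0 and 63.2 CPM in Trim AG (log2 fold change 0.06, edgeR adjusted p = 0.48). Hif1an (0.06), Dram2 (0.23) and Tp53inp1 (−0.24) also missed the threshold on p, and Bax (0.46) and Casp2 (−0.32) missed that on fold.

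In the BCL2 family and the caspases there was no common direction. Of 10 pro-death members tested Bok (1.88) and Pmaip1 (0.83) rose and Bmf, Bcl2l11 and Bnip3l (−0.94) fell. The share that rose was near the 17.0% of all genes tested. The share that fell was above the 20.2% of all genes tested, but rests on 3 genes. Bok was at 38.01, 34.6 and 31.8 CPM in MC and at 126, 125 and 129 CPM in Trim AG. Of 9 survival genes Birc5, Birc3 (0.74) and Birc2 (0.68) rose (33.3%) and Bcl2l2 (−0.89) and Xiap (−0.82) fell (22.2%). The initiator caspase Casp8 fell from 9.79, 10.3 and 10.2 CPM to 4.32, 4.54 and 4.73 CPM, whereas Casp4 (1.00), Casp12 (0.70) and Cycs (cytochrome c, 0.93) rose. In all, 5 of 24 caspase and death receptor genes rose and 7 fell.

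Of 36 tested genes reported elsewhere as targets of miR-125b, 12 fell and 2 rose, and the median log2 fold change was −0.24. A share of 33.3% fell, against 20.2% of all genes tested. The falls were led by Bmf, Erbb3 (a neuregulin receptor, −2.67), Lifr (the LIF receptor, −2.02), Stat3 (−1.78) and Cgn (−1.62). Stat3, a transcription factor downstream of the same receptor, was at 182, 175 and 183 CPM in MC and at 57.1, 45.4 and 53.2 CPM in Trim AG. Hmga2 (0.92) was among those that rose. In the microRNA pathway itself 2 of 23 genes rose and 4 fell. Tnrc6b, a partner of Argonaute, and Dis3l2, an exonuclease of uridylated RNA, fell by 1.14 and 1.40, Ago3 rose by 0.92, and Drosha, Dicer1 and Ago2 were not called.

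The unfolded protein and integrated stress responses rose: 17 of 30 genes were higher and 3 lower, with a median log2 fold change of 0.73. Ddit3 (CHOP) was at 91.7, 90.2 and 85.5 CPM in MC and at 212, 292 and 255 CPM in Trim AG. Trib3, Asns, Hspa5 and Atf4 rose by 1.36, 1.27, 0.94 and 0.82. Eif2ak3, which encodes the sensor PERK, and Slc7a11, the cystine transporter, fell by 0.65 and 1.12, the first not being called with the length trend removed (−0.51). Of 19 immediate early genes 11 rose, led by Klf2 (1.63) and Dusp5 (1.42), and Fosb and Egr3, both low in level, fell. The fall of Fosb was not called without MC replicate 1 (−0.84), nor that of Egr3 without MC replicate 1, 2 or 3 (−1.57, −1.32 and −1.59) or Trim AG replicate 2 (−1.07). Egr3 was also not called with DESeq2, with a replicate block, in 1 fit of all 18 libraries or with thinned counts (adjusted p = 0.060, 0.057, 0.086 and 0.062).

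Genes of growth factors and imprinted loci fell in 9 of 18 cases and rose in none. Igfbp5, a binding protein of insulin-like growth factors, fell from 344, 341 and 355 CPM to 35.4, 17.3 and 25.6 CPM, and Igf2, a growth factor of myoblasts, from 1189, 1217 and 1218 to 550, 423 and 498 CPM. Peg3 and Igf2r fell by 1.79 each. In the TGF-beta and Notch pathways 4 of 29 rose and 9 fell. Tgfb3 rose from 131, 143 and 141 CPM to 350, 329 and 345 CPM, and the Notch receptor Notch3 and ligand Dll1 fell by 2.33 and 5.00.

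Of the genes of glycolysis and glucose uptake 5 of 21 fell and 1 rose. The 23.8% that fell were near the 20.2% of all genes tested, while the median log2 fold change of the list was −0.39, against 0.0 for all genes tested. Pfkm, muscle phosphofructokinase, fell from 123, 116 and 122 CPM to 25.7, 17.2 and 23.0 CPM, and Gpi and Pfkl fell by 1.34 and 1.18. Ldha and Pgk1 (−0.50 and −0.51) missed the threshold on fold, and Aldoa, Gapdh and Pkm were not called. Among other oxygen-responsive genes 9 of 24 fell and 3 rose, the lowest being Ndrg1 (−2.93) and Car9 (−2.03), and neither Hif1a nor Vegfa was called. Of 33 nuclear genes of the respiratory chain 10 were called higher (30.3%, against 17.0% of all genes tested) and 23 were not called, with a median log2 fold change of 0.47. The 10 were 5 without Trim AG replicate 2, 6 without MC replicate 3 and 16 without Trim AG replicate 1. Of the 11 mitochondrial transcripts tested Mt-nd4 (0.61) and Mt-nd4l (0.79), subunits of complex I, rose (18.2%, near the 17.0% of all genes tested). Neither was called without Trim AG replicate 2 (0.33 and 0.56), nor was Mt-nd4 without MC replicate 1, 2 or 3 (0.70, 0.46 and 0.68). Mt-nd4 was also not called with DESeq2, with a replicate block, with total counts or with the length trend removed (adjusted p = 0.086, 0.052, 0.055 and 0.073). The share of all counts from mitochondrial genes was 3.58% to 3.78% in MC and 3.52%, 5.29% and 4.57% in Trim AG.

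Genes of antioxidant defence and chaperones rose in 8 of 22 cases and fell in 4, with Gclc (1.17) and Hmox1 (0.87) up-regulated. Ftl1, ferritin light chain, had a large absolute rise, from 2998, 2961 and 2859 CPM to 6002, 7474 and 6469 CPM. Of 25 genes of cholesterol and fatty acid synthesis 2 rose and 3 fell, among them Dhcr7, which catalyses a late step of cholesterol synthesis, by 1.92. Lysosome and autophagy genes fell in 10 of 30 cases and rose in none. Lamp1, a glycoprotein of the lysosomal membrane, and Ctsd, the protease cathepsin D, fell by 1.66 and 1.97, and the autophagy kinases Ulk1 and Ulk2 by 0.88 and 0.92.

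The counts of these smaller lists are read against the 17.0% of all tested genes that rose and the 20.2% that fell. Shares that rose were 18.2% for G1 regulators, 23.8% for inflammation and NF-kB, 20.8% for caspases and death receptors, 36.4% for antioxidant defence and chaperones and 57.9% for immediate early genes. Shares that fell were 18.2% for G1 regulators, 17.4% for the microRNA pathway, 12% for cholesterol synthesis, 29.2% for caspases and death receptors, 31.0% for the TGF-beta and Notch pathways, 33.3% for autophagy and lysosomes, 37.5% for other oxygen-responsive genes and 50% for growth factors and imprinted loci. G1 regulators were thus near the share of all genes in both directions. Among genes that fell, inflammation and NF-kB (4 of 21) and antioxidant defence and chaperones (18.2%) were near it too. Immediate early genes that fell were below it (10.5%). Rises below the share of all genes were found for the TGF-beta and Notch pathways (13.8%) and other oxygen-responsive genes (12.5%). The same held for the microRNA pathway (8.7%) and cholesterol synthesis (2 of 25).

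**Figure D4:**
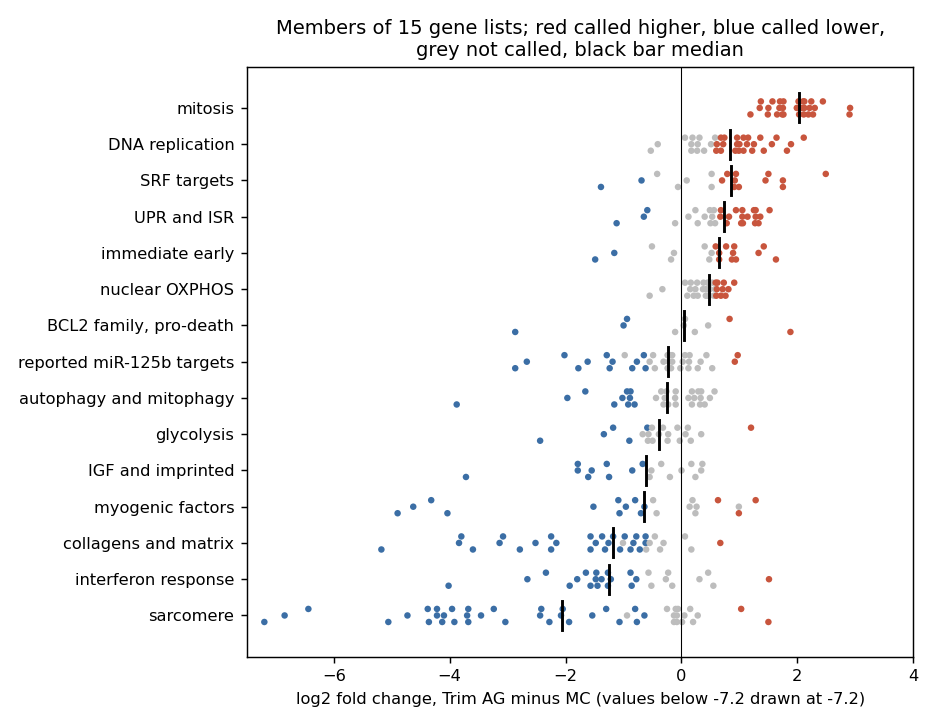
Log2 fold change (Trim AG minus MC) of the tested members of 15 gene lists, 1 point per gene, red where called higher, blue where called lower and grey where not called, with a black bar at the median of each list and Sln drawn at the left edge. Medians run from 2.02 in the mitosis list to −2.07 in the sarcomere list, and the points of most other lists lie on both sides of 0.

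Trim AG was tested directly against miR-125b, Trim A and Trim AGU, but not against Plus A, and of these 3 comparisons that with miR-125b had the most calls and that with Trim AGU the fewest. These comparisons use the same 3 Trim AG libraries that chose the named genes above, so they do not stand apart from the comparison with MC. Against miR-125b, 1202 of 15305 genes were higher with Trim AG (7.85%) and 1757 lower (11.5%). Against Trim A, 616 of 15284 were higher (4.03%) and 825 lower (5.40%), and without Trim AG replicate 3 the calls in both directions went from 1441 to 790, without Trim A replicate 3 to 881. Against Trim AGU, 30 of 15151 were higher (0.198%) and 36 lower (0.238%).

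The calls against Trim AGU depended on single libraries. There were 66 in all, 0 by edgeR without Trim AG replicate 1, without Trim AG replicate 3 or without Trim AGU replicate 3, 1 without Trim AG replicate 2, 14 without Trim AGU replicate 1 and 429 without Trim AGU replicate 2, and DESeq2 called 528. At an unadjusted p below 0.05 and the same fold the count was 1393, and 1205, 943 and 1480 in the 3 fits that made 0 calls.

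Mitosis genes were higher with Trim AG than with miR-125b in 29 of 29 cases and than with Trim A in 28 of 29, all but Ttk, and in 0 of 29 by edgeR against Trim AGU. Of all genes tested 7.85%, 4.03% and 0.198% were higher in these comparisons, in the same order. Prc1 was at 29.0 ± 1.33 CPM with MC, 57.4 ± 2.15 with miR-125b, 96.0 ± 7.30 with Trim A, 190.5 ± 26.6 with Trim AGU and 217 ± 31.5 with Trim AG. The last 2 overlapped, and their difference was 0.20 on the log2 scale, with a 95% interval from −0.16 to 0.56. For Mki67 the difference from Trim AGU was 0.14 (−0.15 to 0.42) and from miR-125b 1.71 (1.53 to 1.89).

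In muscle genes the order of the forms was not the same for each gene. Myog stood at 63.2 ± 0.77 CPM with miR-125b, 41.7 ± 1.76 with Trim A and 42.0 ± 5.24 with Trim AGU, all below the 340.9 CPM of MC and above the 11.3 CPM of Trim AG. The difference of Trim AG from Trim AGU was −1.88 (95% interval −2.22 to −1.53). Tnnt2 was at 41.6 ± 1.16, 29.5 ± 0.91 and 43.9 ± 17.9 CPM in the same 3 groups, and its difference from Trim AGU was not called (−1.45, −2.05 to −0.85, adjusted p = 0.070). Acta1 stood apart: miR-125b, Trim A and Trim AGU had 18.6 ± 1.21, 31.8 ± 1.37 and 67.8 ± 13.6 CPM, against 161.1 ± 17.9 with Trim AG and 161.0 ± 5.06 with MC. Of 42 sarcomere genes tested against miR-125b, 11 were lower and 5 higher with Trim AG. Of all genes tested in that comparison 11.5% were lower and 7.85% higher.

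Targets and matrix genes differed from miR-125b as well. Bak1 was at 36.6 CPM on average with miR-125b, 42.4 with Trim A and 65.0 with Trim AGU, so the level with Trim AG was higher than with miR-125b (0.76, 95% interval 0.59 to 0.93) and its difference from Trim AGU was −0.05 (−0.34 to 0.25). Bmf differed in the other direction, with less RNA after Trim AG than after miR-125b (−1.36, −1.72 to −0.99) or Trim A (−0.82, −1.25 to −0.39). Col1a1 was at 25980 ± 612 CPM with miR-125b, above the 15460 ± 570 of MC, and Trim AG was below miR-125b by 1.59 on the log2 scale. Of 35 matrix genes 23 were called lower in Trim AG against miR-125b and none higher by edgeR, where 11.5% of all genes tested were lower and 7.85% higher. Ddit3 did not pass the test between Trim AG and miR-125b (0.24, −0.03 to 0.50), Trim A or Trim AGU.

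A set of 35 genes, chosen after their values were seen, was called the same way against MC, miR-125b, Trim A and Trim AGU, 9 higher and 26 lower with Trim AG. Lamp1 (ENSRNOG00000019629, chromosome 16, 81689590 to 81706561, minus strand in the deposited annotation) was at 829, 829 and 817 CPM with MC, 839, 822 and 834 with miR-125b, 857, 822 and 818 with Trim A and 905, 939 and 828 with Trim AGU, but at 281, 235 and 261 CPM with Trim AG. Gaa, acid alpha-glucosidase, was at 272.0 to 294.1 CPM with MC, 315.5 to 327.5 with miR-125b, 210.1 to 322.3 with Trim A, 201.8 to 311.0 with Trim AGU and 32.7 to 58.6 with Trim AG. In both genes every library of the other 4 groups was above all 3 of Trim AG. Ctsd and Dpp7, a protease and a peptidase of lysosomes, were lower by 0.96 to 1.97 and by 0.81 to 0.93 on the log2 scale over the 4 comparisons, and Sort1, the sorting receptor sortilin, by 1.72 to 3.02. Other lysosomal genes did not follow this pattern: of the 30 tested genes of autophagy and lysosomes Lamp1 and Ctsd alone were called against Trim AGU, where Lamp2 differed by −0.10, Ctsl by −0.47 and Ctsb by 0.31, none of them called.

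Bgn, like Lamp1, did not overlap with the other groups: it was at 1513 to 3287 CPM over the 12 libraries of the other 4 groups and at 146 to 306 CPM with Trim AG. Unlike Lamp1 it was not level over those groups, with means of 3216, 2697, 1962 and 1830 CPM with MC, miR-125b, Trim A and Trim AGU. Myog, Chrna1, Lum and Pfkm belonged to the same set. Of the 9 that were higher, Tgfb3 was at 329 to 350 CPM with Trim AG and at 104 to 202 CPM in the 12 other libraries, and Tubb3 and Akap12 were higher by 0.91 to 1.45 and by 1.01 to 1.54 on the log2 scale. Of the 35, 35 were called against Trim AGU by DESeq2 too, 11 without Trim AGU replicate 1, 1 without Trim AG replicate 2 and 0 without Trim AG replicate 1, Trim AG replicate 3 or Trim AGU replicate 3. With the replicate number as a block 3 of the 35 were called.

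**Figure D5:**
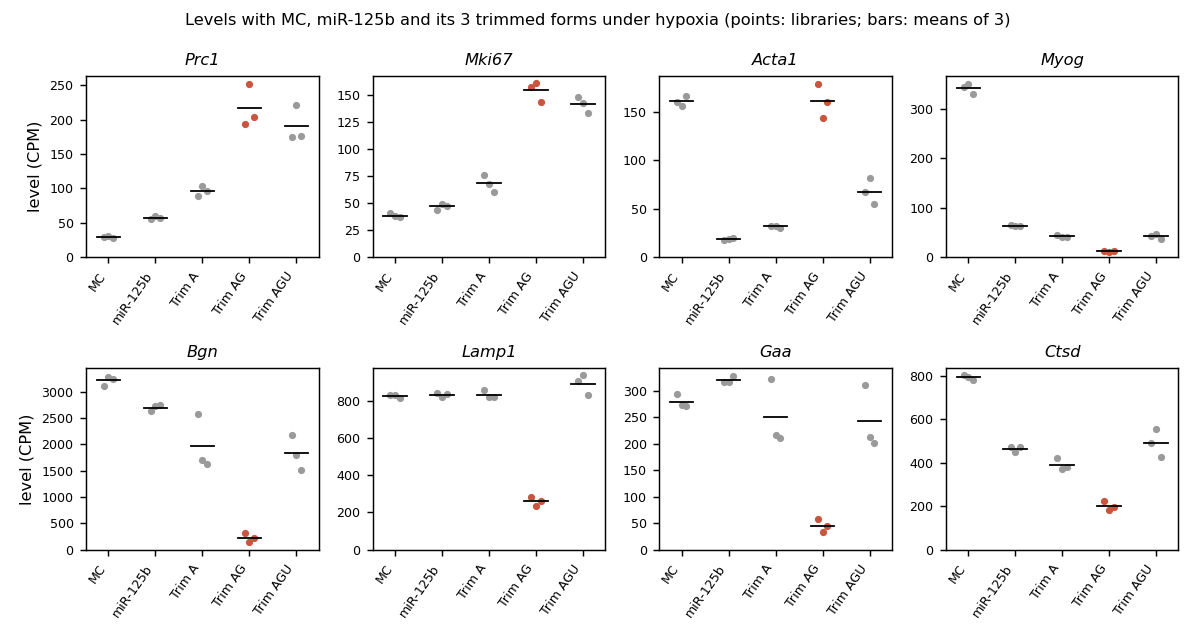
Level (CPM, linear axis from 0) of 8 genes in each of 3 libraries with MC, miR-125b, Trim A, Trim AG (red) and Trim AGU under hypoxia, with bars at the means. Prc1 and Mki67 were highest with Trim AG and Trim AGU, Acta1 with MC and Trim AG, and Myog, Bgn, Lamp1, Gaa and Ctsd were lowest with Trim AG.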

How the data were processed

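Poly-A libraries without strand information were sequenced. The authors deposited a table for each pair of groups, with raw read counts per gene and library and FPKM values (counts scaled by gene length and library total), besides their own fold changes and p-values, which were not used. The submitters' processing notes name HISAT2 and StringTie, and the genome build is not given in the sources used here. Counts of a library listed in several tables conflicted for 0 genes. The table of Trim AG and MC lists 21388 genes, of which 15315 passed filterByExpr, and 275 names are carried by more than 1 identifier.

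Counts were tested with edgeR 4.0.16 (R 4.3.3), with TMM normalization and the quasi-likelihood F test on the libraries of each pair of groups, and p-values were adjusted with Benjamini-Hochberg over all genes tested. CPM was TMM-normalized over the 18 hypoxia libraries, and FPKM, from the deposited tables, was used where the levels of actin or troponin genes are compared with each other, with its values in both groups and no test of its own. Each standard error was obtained by dividing a log2 fold change by √F. Alternatives were DESeq2 1.42.0, RLE factors, total counts, no filter, a replicate block, leaving out single libraries, all 18 libraries in 1 fit, thinned counts, a lowess trend on gene length removed (span 0.3) and other fold thresholds. The fitting code was checked on simulated counts in which 200 genes were changed, as many up as down. Far more genes, 5692, were called against MC, so the check does not cover changes that wide. Overlapping, antisense and near-identical genes cannot be told apart in libraries without strand.

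The groups compared, the 27 gene lists, the 8 marker lists, the named genes and the tests were chosen with earlier results of these data known. Named genes are, per direction, the 12 called protein coding genes with the largest log2 fold change and the 5 with the largest CPM difference (at least 10 CPM in the higher group, no overlap between groups, no locus name), the genes the study names, and up to 3 called members per end of each list. Other members are given where they help to describe a list, and genes called in all 4 comparisons were chosen after their values were seen. Some members and 1 list are not reported here.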

Additional observations from a re-analysis of the deposited data

How the results depend on the processing

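Of the 345 listed genes called against MC, 292 stayed called under all 14 alternatives apart from the fold thresholds, and 0 of the listed genes reversed. The 2604 higher and 3088 lower calls ranged from 2409 to 2828 and from 2972 to 3289 when a library was left out, and were 2616 and 3112 with DESeq2, 2731 and 3195 without the filter, 2608 and 2990 with the length trend removed, and 2547 and 3067 with thinned counts. A fold threshold of 2 left 1162 higher and 1779 lower genes, and with no fold threshold 4560 were higher and 4533 lower, as the construction requires. Scaling to total counts gave 2227 and 3401 and moved the median of all genes to −0.06. Against miR-125b the 2959 calls ranged from 2551 to 3627 without single libraries. Against Trim A the 1441 calls ranged from 790 to 1393, and DESeq2 called 1601. Against Trim AGU the 66 calls ranged from 0 to 429 without single libraries and were 528 with DESeq2, and the cause was not tested.

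The replicate numbers were not taken to pair the libraries, since in no comparison did every pair of the same number deviate together by a correlation over 0.1 across genes. For numbers 1, 2 and 3 the correlations with Trim AG were −0.033, −0.002 and −0.03 for MC, −0.043, −0.032 and 0.026 for miR-125b, 0.329, 0.221 and −0.021 for Trim A and 0.263, 0.171 and 0.049 for Trim AGU. Every Trim AG and Trim AGU library correlated best with its own number in the other group, which is a hint from the data and not from the design. With the replicate number as a block, 2530 genes were higher and 3075 lower than MC, 2858 were called against miR-125b, 1925 against Trim A and 3 against Trim AGU. Of 22 counts of called list members of at least 5, with 308 alternative values, 4 moved by more than 1.5 times, all in the respiratory chain list: its 10 higher genes were 6 without MC replicate 3, 16 without Trim AG replicate 1, 5 without Trim AG replicate 2 and 6 with total counts. In 1 fit of all 18 libraries Hand2 (1.26), Hmga2 (0.91), Xiap (−0.83) and Myocd (−0.71) were among the genes that lost their calls. With the length trend removed Dicer1 (0.62), Tap1 (0.59), Ldha (−0.59) and Pgk1 (−0.60) were among those that passed the threshold. Thinning the libraries to equal totals moved the counts of calls by less than any left-out library did at its most, and levels below 1 CPM rest on few counts.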
